A study of Rattus norvegicus with 48 samples.

Results

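Gnaq and 9 further genes of the path from Gq proteins to calcium release were examined: the alpha subunit genes Gna11 and Gna14, the phospholipase C beta genes Plcb1, Plcb3 and Plcb4, the IP3 receptor genes Itpr1, Itpr2 and Itpr3, and the RGS gene Rgs4. They are 10 of the 32883 genes in each count table, were matched by gene symbol, and all 10 passed the filter on low counts in both tissues. The set was chosen by the surgery effect in each tissue and its difference between tissues. By p, Gnaq had rank 3 of 16401 genes for surgery in posterior eye and rank 1 of 17153 for the difference between tissues, so the surgery differences of a tissue and their difference between tissues are a description. Calls for these contrasts are printed as counts beside those of all genes, and nothing is read from them. Whether the surgery difference depended on age was not used in the choice and was tested.

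RNA was sequenced from the retina and from the posterior eye, the tissue at the back of the eye, of 24 female Long-Evans rats, an outbred pigmented strain. Animals of 3 to 4 months are called young here, and those of 9 to 10 months, which the submitters term middle-aged, are called aged. Ovariectomy (OVX) removes the ovaries, and sham surgery leaves them in place. Each age was divided into sham and OVX animals, giving 4 groups of 6, and every animal gave 1 library of each tissue. No further treatment or genetic change is given in the labels, and the time between surgery and dissection is not given in the sources used here.

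Gq-class alpha subunits couple receptors for many hormones and transmitters to phospholipase C beta. That enzyme splits a membrane phosphoinositide into diacylglycerol, which activates protein kinase C, and IP3, which opens IP3 receptors and releases calcium from the endoplasmic reticulum. RGS proteins shorten the signal by speeding GTP hydrolysis on the alpha subunit. In the eye the path is known for melanopsin signalling in retinal ganglion cells, for vascular and ciliary smooth muscle, and, through activating GNAQ and GNA11 mutations, for melanocytic tumours of the uveal tract.

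The 250 bases before the annotated start of the alpha subunit genes, and of Rgs4 as their inhibitor, are shown because they differ in base composition and motifs. They come from RefSeq on build GRCr8, whereas the counts were made on Rnor_6.0. The windows are chr1:222852203-222852452 for Gnaq, chr7:8814035-8814284 for Gna11 and chr1:223141552-223141801 for Gna14, all on the plus strand, and chr13:84475885-84476134 on the minus strand for Rgs4. Capitals mark matches on either strand to the GC box (GGGCGG), to the TATA motif (TATAAA), to the CCAAT box and to GGTCA, the arm of the oestrogen response element. None of these 4 motifs contains another.
Gnaq: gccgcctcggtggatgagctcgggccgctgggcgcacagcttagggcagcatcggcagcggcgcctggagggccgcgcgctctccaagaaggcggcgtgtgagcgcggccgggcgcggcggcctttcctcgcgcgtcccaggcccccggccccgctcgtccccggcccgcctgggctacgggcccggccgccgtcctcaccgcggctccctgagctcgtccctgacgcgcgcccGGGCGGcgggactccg
Gna11: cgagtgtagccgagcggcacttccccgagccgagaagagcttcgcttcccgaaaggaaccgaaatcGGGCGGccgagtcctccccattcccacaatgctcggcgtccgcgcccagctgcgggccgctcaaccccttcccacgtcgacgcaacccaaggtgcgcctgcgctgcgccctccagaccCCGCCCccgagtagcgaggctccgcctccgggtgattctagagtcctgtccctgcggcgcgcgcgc
Gna14: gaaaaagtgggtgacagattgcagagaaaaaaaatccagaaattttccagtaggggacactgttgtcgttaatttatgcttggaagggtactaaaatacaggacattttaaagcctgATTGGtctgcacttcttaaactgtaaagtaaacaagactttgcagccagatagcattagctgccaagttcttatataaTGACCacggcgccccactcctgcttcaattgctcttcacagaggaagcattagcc
Rgs4: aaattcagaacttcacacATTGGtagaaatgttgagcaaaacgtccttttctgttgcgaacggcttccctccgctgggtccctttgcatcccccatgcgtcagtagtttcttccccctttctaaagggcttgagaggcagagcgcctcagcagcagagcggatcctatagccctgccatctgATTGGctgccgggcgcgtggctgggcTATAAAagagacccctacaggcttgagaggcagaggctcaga
The Gnaq window was 80% G or C with 41 CpG sites, and that of Gna11 70% with 33, against medians of 52% and 6 over 27456 rat promoter windows of the same length. The Gna14 window was 41.2% G or C with 3 CpG sites, and that of Rgs4 54.4% with 10. All 10 members had a window. GGGCGG was found in 6 of them and in 32.1% of all windows, TATAAA in 2 and 13.2%, CCAAT in 3 and 34.2%, and GGTCA in 2, those of Gna14 and Plcb1, and 35.3%. The full oestrogen response element, GGTCA and its reverse complement with 3 bases between, was in none of the 10 and in 0.0219% of all windows. In the GRCr8 annotation Gnaq and Gna14 lie on chromosome 1 with 1 annotated protein-coding gene between them, and Plcb4 is the next protein-coding gene after Plcb1 on chromosome 3.

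Library totals lay between 11470945 and 22971367 counts for posterior eye, and between 12916146 and 30737547 for retina. The biological coefficient of variation over genes was 33.4% in posterior eye and 12% in retina. Levels are given as CPM, the reads of a gene divided by the TMM-scaled total of its library and put on the usual edgeR scale. Posterior eye libraries were mixed tissue: on a scale shared by both tissues, the type I collagen gene Col1a1 averaged 1868 CPM there and 1.32 in the retina, and Rpe65 of the pigment epithelium 307 and 20.5. Skeletal muscle markers of posterior eye libraries summed to between 8332 and 38698 CPM, and rod markers to between 326 and 36089.

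Gnaq, which encodes the Gq alpha subunit, was higher after OVX in posterior eye and lower after OVX in the young retina. In the young posterior eye the 6 sham libraries ran from 22.8 to 26.7 CPM with a median of 25.2, and the 6 OVX libraries from 27.8 to 34.1 with a median of 30.3. All 6 OVX libraries were above the highest sham library. In the aged posterior eye sham libraries ran from 20.3 to 27.2 CPM (median 23.6) and OVX libraries from 25.4 to 30.0 (median 28.02). These groups overlapped, with the aged sham animal 13 at 27.2 CPM.

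In the young retina the order was the other way. Sham libraries ran from 28.1 to 31.6 CPM of Gnaq (median 29.3), and OVX libraries from 24.6 to 27.5 (median 26.3), all 6 below the lowest sham library. In the aged retina the groups overlapped, with 24.3 to 31.2 CPM in sham (median 27.9) and 24.3 to 28.9 in OVX (median 26.8). The Gnaq count in a library was between 260 and 856 reads.

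Among the 10 members only Gnaq had sham and OVX libraries that did not overlap, in the young posterior eye and in the young retina. Over all genes tested, 0.238% did not overlap in the young posterior eye and 1.46% in the young retina. No member was without overlap in the aged posterior eye or the aged retina, where 0.0976% and 0.291% of genes were. The rule used these contrasts, so nothing is read from the counts.

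**Figure D1:**
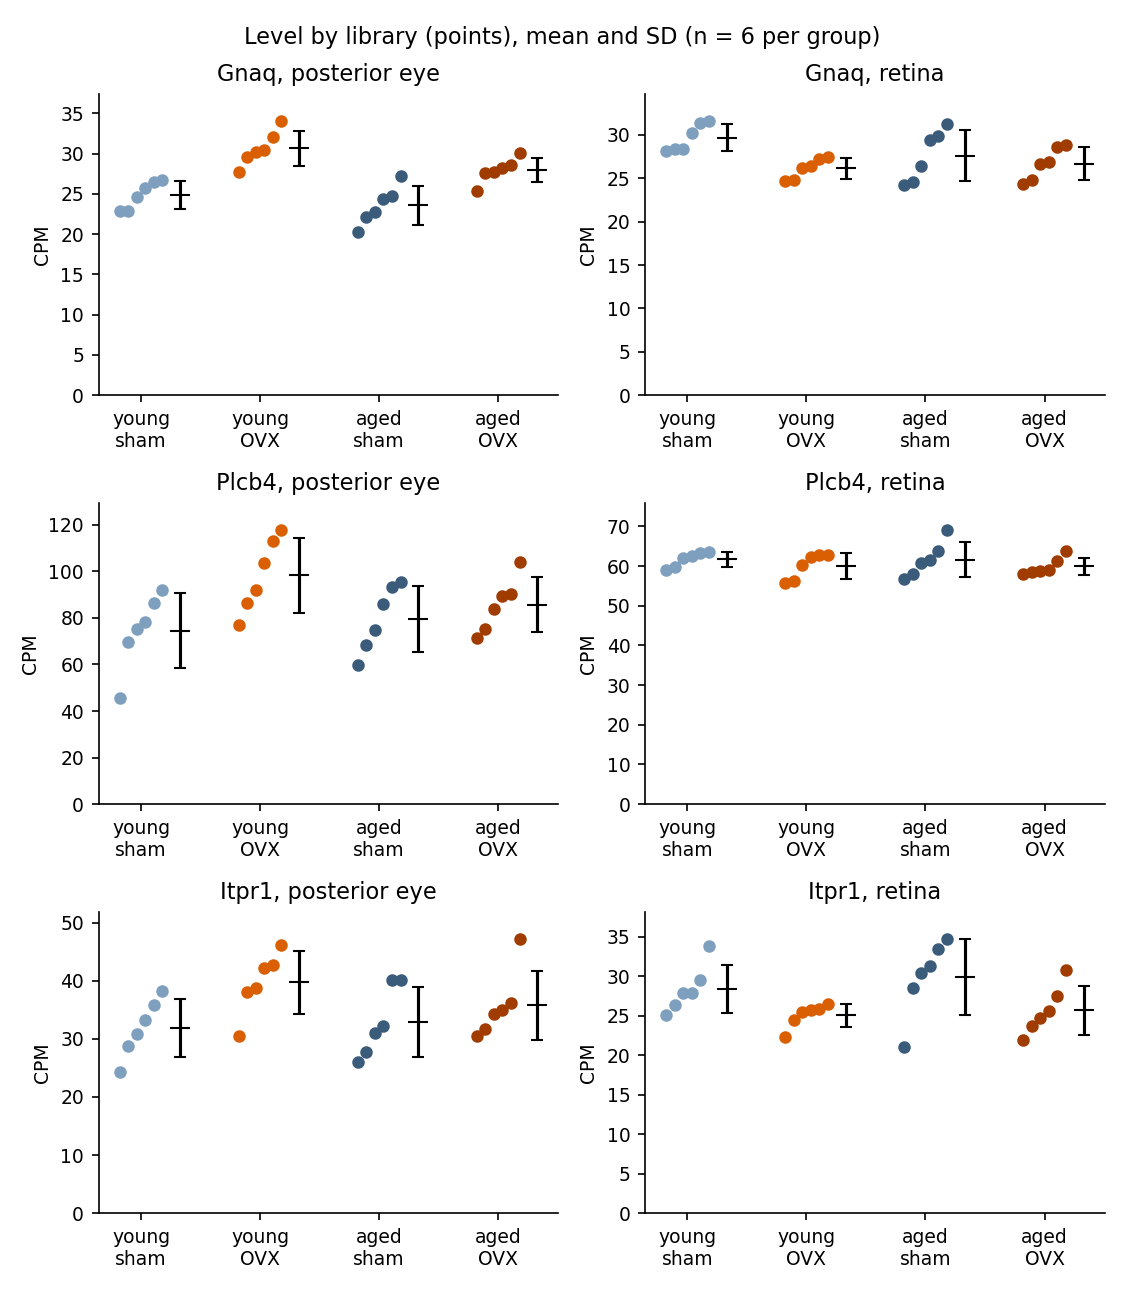
Each point is 1 library's level in CPM, ordered by level within a group, with the mean and SD of 6 libraries beside it, for Gnaq, Plcb4 and Itpr1 in posterior eye (left) and retina (right). The young OVX posterior eye libraries of Gnaq, from 27.8 to 34.1 CPM, all lie above the young sham libraries, whereas Plcb4 and Itpr1 groups overlap.

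The fitted surgery difference of Gnaq in the posterior eye was 0.30 ± 0.07 in log2 units (SE, 6 animals per group) in young and 0.25 ± 0.07 in aged animals, or 0.27 ± 0.05 over both ages, a level 20.8% higher after OVX. In the retina it was -0.18 ± 0.06 in young, -0.05 ± 0.06 in aged and -0.12 ± 0.04 over both. By edgeR 0 of the 10 members passed an adjusted p of 0.05 for surgery in the posterior eye, against 0% of all genes, and 0 in retina, against 0.0517%. With no adjustment 3 members had p under 0.05 in posterior eye and 2 in retina, against 5.72% and 10.8% of all genes. DESeq2 called 1 member, Gnaq, among 29 genes in posterior eye, and no member among 51 genes in retina. In the posterior eye the members' median difference was 0.13 against 0.00 over all genes, and in the retina 0.02 against 0.00.

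Gna11, whose product is closely related to the Gnaq protein and couples to the same enzymes, overlapped between groups throughout. In the posterior eye young sham libraries ran from 12.9 to 21.8 CPM (median 17.9) and young OVX libraries from 17.1 to 23.1 (median 20.9). The aged groups had medians of 16.0 CPM in sham and 18.0 in OVX. The surgery difference over both ages was 0.17 ± 0.10 (log2, SE) in posterior eye and -0.01 ± 0.08 in the retina, where group medians lay between 20.0 and 21.7 CPM.

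Gna14, a Gq-class alpha subunit gene of restricted expression, was measured from few reads. Its posterior eye group medians were 3.23 CPM in young sham, 4.08 in young OVX, 4.18 in aged sham and 4.83 in aged OVX. In the retina they were 1.70, 2.49, 2.04 and 1.42 in the same order, and libraries ran from 0.569 to 4.15 CPM. The retinal surgery difference was 0.66 ± 0.31 (log2, SE) in young and -0.47 ± 0.32 in aged animals, with overlapping groups at each age.

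Among the phospholipase C beta genes, Plcb4, an isoform known from retina and brain, had the largest difference of the 10 members in the young posterior eye. Young sham libraries ran from 45.6 to 91.8 CPM (median 76.7) and young OVX libraries from 76.8 to 118 (median 97.8). The aged groups ran from 60.0 to 95.3 CPM in sham (median 80.3) and from 71.2 to 104 in OVX (median 86.5). Both pairs overlapped, and in the young pair 2 of 6 OVX libraries lay within the sham range. The difference was 0.40 ± 0.15 (log2, SE) in young, 0.11 ± 0.15 in aged and 0.25 ± 0.10 over both ages. In the retina Plcb4 stayed between 55.8 and 69.1 CPM in all 24 libraries, with a surgery difference of -0.04 ± 0.03.

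Plcb1, an isoform abundant in forebrain neurons, had posterior eye medians of 9.23 CPM in young sham, 11.0 in young OVX, 8.45 in aged sham and 7.69 in aged OVX. Its surgery difference was 0.29 ± 0.13 (log2, SE) in young and -0.11 ± 0.13 in aged posterior eye, and -0.18 ± 0.08 and 0.08 ± 0.08 in young and aged retina. Plcb3, a broadly expressed isoform, showed posterior eye medians between 60.3 and 64.0 CPM and retinal medians between 12.7 and 14.1. Its surgery difference over both ages was -0.04 ± 0.09 in posterior eye and 0.08 ± 0.06 in the retina.

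Of the IP3 receptors, Itpr1, the main neuronal type, had surgery differences of opposite sign in the 2 tissues. In the posterior eye young sham libraries ran from 24.2 to 38.3 CPM (median 32.1) and young OVX libraries from 30.4 to 46.2 (median 40.4). The aged groups had medians of 31.6 CPM in sham and 34.6 in OVX. In the retina the medians were 27.9 CPM in young sham and 25.6 in young OVX, and 30.9 in aged sham and 25.1 in aged OVX. All of these pairs overlapped. The difference over both ages was 0.22 ± 0.09 (log2, SE) in posterior eye and -0.20 ± 0.07 in the retina.

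Itpr2, a receptor type common in glia and epithelia, had a surgery difference of -0.06 ± 0.11 (log2, SE) in the posterior eye, where its group medians lay between 54.2 and 58.1 CPM. In the retina its difference was 0.09 ± 0.08 and its medians lay between 5.18 and 6.19 CPM. Itpr3, often epithelial, differed by 0.03 ± 0.10 in posterior eye and by 0.26 ± 0.13 in the retina. Its retinal libraries ran from 15.2 to 32.7 CPM in young sham (median 18.6) and from 21.3 to 36.4 in young OVX (median 24.4), with overlap.

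Rgs4, the inhibitor, had posterior eye medians of 21.4 CPM in young sham, 24.8 in young OVX, 22.0 in aged sham and 17.7 in aged OVX. Its surgery difference over both ages was -0.05 ± 0.09 (log2, SE) there and 0.05 ± 0.04 in the retina. Retinal group medians lay between 27.8 and 30.4 CPM.

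**Figure D2:**
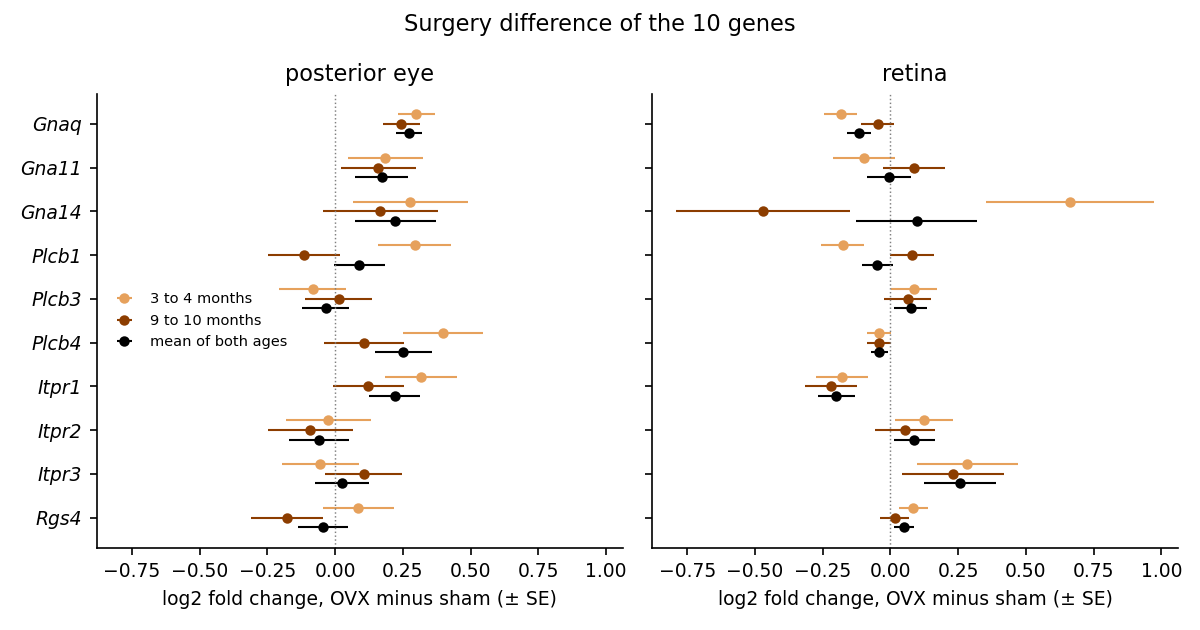
Points are fitted log2 fold changes (OVX minus sham) with SE for the 10 genes, in young, aged and both ages, in posterior eye (left) and retina (right). Gnaq lies at 0.27 in posterior eye and -0.12 in the retina over both ages, and Gna14 in the retina has the widest errors.

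Since each animal gave both tissues, the ratio of posterior eye to retina level can be read per animal. For Gnaq the log2 ratio was below 0 in 6 of 6 young sham animals, from -0.20 to -0.03, and above 0 in 6 of 6 young OVX animals, from 0.28 to 0.45. In aged animals it ran from -0.41 to 0.07 after sham surgery and from -0.07 to 0.39 after OVX, with 3 of 6 and 5 of 6 animals above 0. Young groups did not overlap and aged groups did. For Itpr1 the young sham ratios ran from -0.18 to 0.54 and the young OVX ratios from 0.57 to 0.97, also without overlap, and the aged ratios from -0.12 to 0.60 and from 0.43 to 0.68. Gnaq and Itpr1 were the 2 members of 10 without overlap in young animals, and 0.373% of 17153 genes had none. In aged animals no member was without overlap, against 0.192% of genes. The choice of members used this contrast.

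The surgery difference in the posterior eye minus that in the retina was fitted without the pairing by animal. It was 0.40 ± 0.06 (log2, SE) for Gnaq, 0.43 ± 0.11 for Itpr1 and 0.31 ± 0.11 for Plcb4. It was 0.19 ± 0.13 for Gna11, 0.15 ± 0.10 for Plcb1, 0.13 ± 0.28 for Gna14 and -0.22 ± 0.18 for Itpr3. The 3 remaining members lay between -0.13 and -0.08. With the animal as replicate block Gnaq stayed at 0.40 ± 0.06. The SE became smaller for Itpr1 (0.43 ± 0.09) and Gna11 (0.20 ± 0.08). It became larger for Plcb1 (0.16 ± 0.12) and Gna14 (0.13 ± 0.32). Gnaq was the 1 member, and the 1 gene of 17153 (0.00583%), past the threshold by edgeR, which the choice of members had used. Without aged sham animal 16, whose Gnaq ratio of -0.41 was the lowest, the Gnaq value was 0.33 and 0 members passed. Without aged OVX animal 20 also 0 members passed. Over all genes the count ran from 0 to 3 when single animals were left out.

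**Figure D3:**
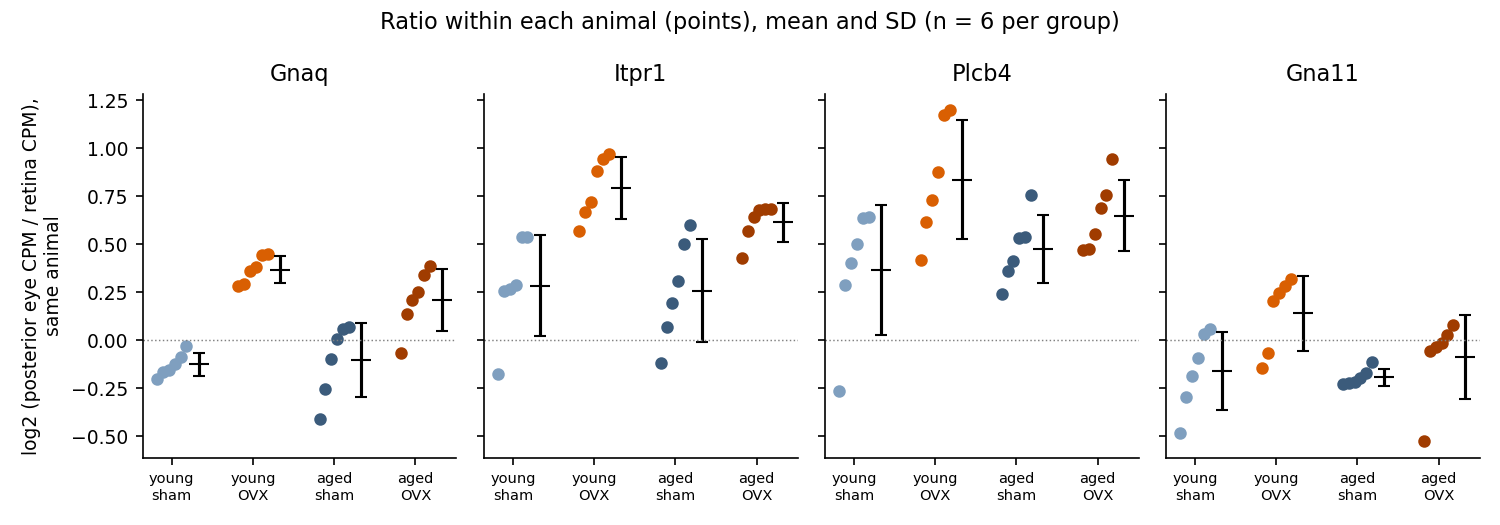
Each point is 1 animal's log2 ratio of posterior eye to retina CPM for Gnaq, Itpr1, Plcb4 and Gna11, with the mean and SD of 6 animals per group. The young Gnaq ratios separate at -0.03 (highest sham) and 0.28 (lowest OVX).

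Mean levels of some marker lists differed between the same posterior eye groups, with libraries that overlapped. Those of other lists hardly differed. In such bulk libraries fewer cells of a type and less RNA per cell cannot be told apart. Of 9 melanocyte markers 7 were measured, none at 0 in all libraries. Their mean level was 6.89 ± 0.52 log2 CPM (SD, 6 libraries) in young sham, 7.36 ± 0.38 in young OVX, 6.77 ± 0.47 in aged sham and 7.01 ± 0.17 in aged OVX. Their summed level ran from 1296 to 4093 CPM in young sham and from 2074 to 4991 in young OVX, and from 1530 to 3456 and 2283 to 3217 in the aged groups. Rod markers (14 of 15 measured) averaged 7.59 ± 1.88 log2 CPM in young sham and 6.55 ± 2.61 in young OVX. In aged sham and aged OVX they averaged 6.81 ± 2.49 and 6.30 ± 2.39. Markers of sebaceous and meibomian glands (10 of 11) averaged 3.86 ± 2.54 and 2.02 ± 0.93 in the young groups. In the aged groups they averaged 2.37 ± 1.99 and 1.61 ± 0.37. Myelin markers averaged 5.54 ± 0.57 in young sham and 6.06 ± 0.73 in young OVX, and lens markers 3.96 ± 0.96 and 4.575 ± 1.94. Pigment epithelium (7.34 and 7.37) and skeletal muscle markers (10.94 and 10.94) hardly differed there.

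With the melanocyte level as a covariate, chosen after seeing the data, the posterior eye surgery difference of Itpr1 was 0.08 ± 0.07 (log2, SE) in place of 0.22, and that of Plcb4 0.07 ± 0.07 in place of 0.25. For Gnaq it was 0.21 ± 0.04 in place of 0.27. With each of the rod, scleral fibroblast, endothelial and gland levels Gnaq lay between 0.24 and 0.28. The endothelial and gland levels were, like the melanocyte level, not planned beforehand. In the retina the pigment epithelium markers (11 of 11 measured) averaged 4.08 ± 0.24 log2 CPM in young sham and 4.61 ± 0.20 in young OVX, and 4.45 ± 0.40 and 3.84 ± 0.20 in the aged groups. With that level as covariate the retinal Gnaq difference over both ages was -0.11, and with the lens level -0.09. The pigment epithelium level rose after OVX in young and fell in aged animals, so it could hardly change a value averaged over ages. With it, the aged minus the young surgery difference in the retina was 0.27 for Gnaq in place of 0.14. For Itpr1 it was 0.15 in place of -0.04. Neither gene passed the threshold for this: over the alternative edgeR and DESeq2 fits adjusted p was at least 0.6145 for Gnaq and 0.9551 for Itpr1. The melanocyte and pigment epithelium lists share Pmel, so they do not fully separate the 2 cell types. In the retina the melanocyte list averaged 1.96 ± 0.41 in young sham and 2.62 ± 0.38 in young OVX, and 2.31 ± 0.36 and 2.08 ± 0.28 in aged. Whether the pigment cell content of the tissue took part in the surgery differences was not tested.

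**Figure D4:**
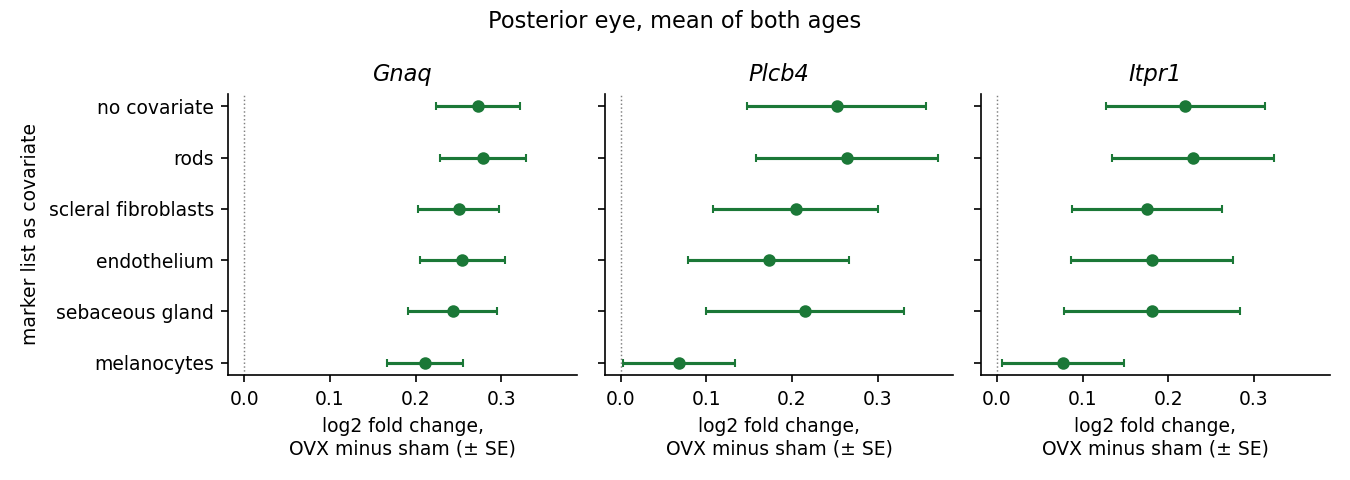
Points are the posterior eye surgery difference (log2, OVX minus sham, mean of both ages, with SE) of Gnaq, Plcb4 and Itpr1, without a covariate and with the mean level of 1 marker list. With the melanocyte list Plcb4 lies at 0.07 and Itpr1 at 0.08, and Gnaq at 0.21.

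Age was not used in choosing the members and was tested, as aged minus young averaged over sham and OVX. By edgeR 0 of 10 members passed in the posterior eye, where 0.0488% of genes did, and 0 of 10 in retina, where 0.736% did. Without adjustment p was under 0.05 for 3 members in posterior eye and for 1 in retina, against 8.9% and 12.9% of all genes, and DESeq2 called none of the 10 in either. Plcb1 and Rgs4 had the smallest adjusted p in the posterior eye, at -0.27 ± 0.09 (log2, SE, adjusted p = 0.367) and -0.25 ± 0.09 (adjusted p = 0.415). In the retina Rgs4 was nearest the threshold, at 0.11 ± 0.04 (adjusted p = 0.171).

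The age difference in the posterior eye minus that in the retina was also fitted without the pairing by animal. By edgeR it was -0.36 ± 0.10 for Rgs4 (log2, SE, adjusted p = 0.322) and -0.32 ± 0.10 for Plcb1 (adjusted p = 0.461). In the edgeR fit with the animal as replicate block it was -0.36 ± 0.10 (adjusted p = 0.480) and -0.33 ± 0.12 (adjusted p = 0.635). Neither passed. By edgeR 0 of 10 members did, against 0.035% of all genes, with 2 members under 0.05 before adjustment (7% of all genes) and none called with DESeq2. For Gnaq the age difference was -0.11 ± 0.05 (adjusted p = 0.538) in posterior eye and -0.04 ± 0.04 (adjusted p = 0.817) in the retina.

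Whether the surgery difference depended on age was tested as the aged difference minus the young one. By edgeR 0 of 10 members passed in the posterior eye, against 0% of all genes, and 0 of 10 in retina, against 0.0452%. Before adjustment 1 and 2 members were under 0.05, against 2.97% and 6.21% of all genes, and DESeq2 called none in either tissue. For Gnaq the value was -0.06 ± 0.10 (log2, SE, adjusted p = 1) in posterior eye and 0.14 ± 0.09 (adjusted p = 0.832) in the retina. Gna14 in the retina had the largest value, -1.13 ± 0.45 (adjusted p = 0.722), and Plcb1 lay at -0.41 ± 0.19 (adjusted p = 1) in posterior eye and 0.26 ± 0.11 (adjusted p = 0.768) in the retina.

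The level of each gene in the 2 tissues was compared over all 48 libraries on a shared scale, without the pairing by animal. In the edgeR fit with the animal as replicate block adjusted p was larger for Itpr2 (3.02e-21), Plcb3 (1.08e-21) and Gna14 (3.41e-07). It was smaller for Gnaq (0.00843) and Gna11 (0.0698), and no member's call changed. The values below are from the fit without the block. Of the 10 members 9 differed by edgeR, 7 higher in posterior eye and 2 higher in retina, near the 93% of all genes that differed. Itpr2 was highest relative to the retina: its libraries ran from 42.9 to 83.4 CPM in the posterior eye (median 58.9) and from 4.22 to 6.62 in the retina (median 5.63). The ranges did not overlap, and the difference was 3.44 ± 0.08 (log2, SE, adjusted p = 3.76e-35), higher in 24 of 24 animals. Plcb3 ran from 46.2 to 83.7 CPM (median 64.5) against 9.55 to 14.6 (median 12.8), 2.36 ± 0.06 (adjusted p = 3.02e-33), also higher in 24 of 24 animals.

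Gna14 and Itpr3 were higher in the posterior eye with overlap between libraries, by 1.14 ± 0.14 (log2, SE, adjusted p = 4.81e-10) and 0.98 ± 0.09 (adjusted p = 1.23e-13). Itpr3 was higher in 24 of 24 animals and Gna14 in 23 of 24. Plcb4 was higher by 0.60 ± 0.05 (adjusted p = 1.04e-13) in 23 of 24 animals, and Itpr1 by 0.49 ± 0.06 (adjusted p = 9.11e-11) in 22 of 24. Plcb1 and Rgs4 were the members higher in retina, by -0.48 ± 0.05 (adjusted p = 2.18e-11, lower in the posterior eye in 23 of 24 animals) and -0.32 ± 0.05 (adjusted p = 1.65e-07, in 22 of 24).

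The 2 broadly expressed alpha subunit genes were close to equal between tissues. Gnaq medians were 27.6 CPM in posterior eye and 26.03 in the retina, a difference of 0.09 ± 0.03 (log2, SE, adjusted p = 0.0100), with 14 of 24 animals higher in the posterior eye. That call rested on single animals: the value was 0.03 (adjusted p = 0.375) without aged sham animal 13, and the call was lost without each of 7 animals. Gna11 medians were 19.1 and 19.6 CPM, a difference of -0.07 ± 0.06 (adjusted p = 0.277).

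**Figure D5:**
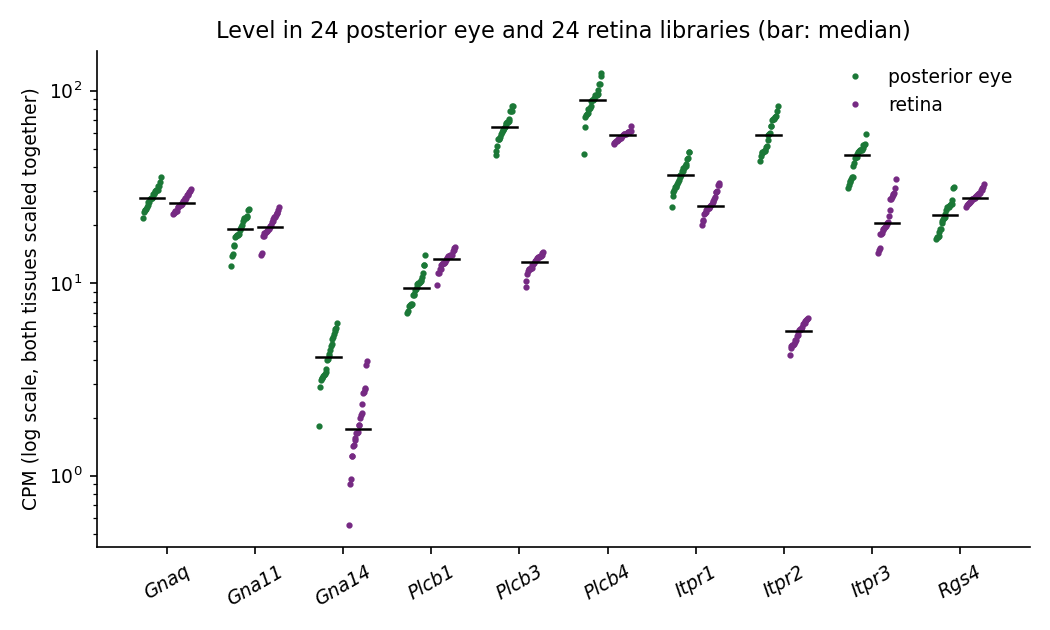
Each point is 1 library's CPM (log axis) in posterior eye or retina, on a scale shared by both tissues, with the median of 24 libraries as a bar. Itpr2 and Plcb3 show no overlap between tissues, and Gnaq and Gna11 lie at similar levels in both.

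Other genes of the path were read from 8 lists. Of 180 genes listed, 163 were tested for posterior eye, 150 for retina and 166 in the fit over both tissues. For age in the posterior eye 0 passed by edgeR, with 13 under 0.05 before adjustment (7.98%, against 8.9% of all genes) and 2 called by DESeq2. For the dependence of surgery on age 0 passed in each tissue, with 5 and 9 under 0.05 before adjustment (3.07% and 6%, against 2.97% and 6.21% of all genes). For the tissue difference of the age effect 0 passed, with 14 under 0.05 before adjustment (8.43%, against 7%). DESeq2 called 0 for the dependence on age and for the tissue difference. In the retina 2 of the 150 passed for age (1.33%, against 0.736% of all genes), 1 of which is described here. Kiss1r, the Gq-coupled kisspeptin receptor, rose with age and had medians of 4.45 CPM in young sham, 4.91 in young OVX, 5.77 in aged sham and 6.77 in aged OVX, a difference of 0.44 ± 0.08 (log2, SE, adjusted p = 0.0146).

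Young and aged libraries of Kiss1r overlapped. Lens markers (10 of 10 measured) moved with age in the retina, at 9.47 ± 1.48 log2 CPM in young sham (SD, 6 libraries), 9.62 ± 0.97 in young OVX, 7.69 ± 1.26 in aged sham and 8.85 ± 1.34 in aged OVX. With the lens level as covariate Kiss1r lay at 0.41 (adjusted p = 0.0636), past the threshold no longer.

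Between tissues 159 of the 166 tested path genes differed, a share of 95.8% that is near the 93% of all genes, with 76 higher in posterior eye and 83 in retina. Among Gq-coupled receptors 23 were higher in posterior eye and 18 in retina. P2ry2, a nucleotide receptor, averaged 174 CPM in posterior eye and 1.21 in the retina, and Opn4, melanopsin, 11.8 and 48.9. Gna15, the alpha subunit gene next to Gna11 in the GRCr8 annotation, averaged 44.6 and 0.799 CPM. Of the other phospholipase C genes 4 were higher in the posterior eye, among them Plcg2 by 2.43 ± 0.10 (log2, SE, adjusted p = 1.11e-25), and 5 in retina, among them Plcd3 by -2.22 ± 0.14 (adjusted p = 1.57e-19). Among the Gq inhibitors 10 were higher in each tissue, with Rgs12 at 62.1 CPM in posterior eye and 9.79 in the retina and Rgs16 at 15.9 and 59.7.

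The genes whose log2 levels tracked Gnaq most closely were ranked over the 24 libraries of each tissue, among 10122 genes in posterior eye and 9541 in retina. The libraries share groups and scaling, so r is a description. In the posterior eye they were Col4a4 (Pearson r = 0.836), Fam13a (0.818), B4galt5 (0.807), Serpine2 (0.771) and Fam49a (0.769). Col4a4, a chain of type IV collagen, had group means of 72.2 CPM in young sham, 99.4 in young OVX, 76.5 in aged sham and 89.4 in aged OVX. In the retina they were Plcxd2 (0.803), Cdh11 (0.795), Smcr8 (0.786), Eml5 (0.771) and Peg3 (0.768). Of the members, Itpr1 had an r with Gnaq of 0.757 in posterior eye and 0.532 in the retina, Plcb4 0.666 and 0.242, and Gna11 0.390 and 0.373. For Plcb3 it was -0.09 and -0.06, for Itpr3 0.02 and -0.19 and for Rgs4 0.05 and -0.09. Itpr2 had -0.18 in posterior eye and Plcb1 0.26 in retina, and members under the mean of 10 CPM were not ranked.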

How the data were processed

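RNA of 48 libraries, retina and posterior eye of 24 rats, was measured. Per the labels' protocols, cDNA was made with the SMART-Seq v4 kit, cut by the Nextera XT kit and read from both ends, with no strand-marking step described, so reads of overlapping and antisense genes cannot be told apart. The authors deposited 1 table of raw read counts per gene for each tissue. The submitters' processing notes name STAR 2.7.3a, HTSeq, DESeq2 and build Rnor_6.0. Annotation and counting settings: not given in the sources used here.

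Low counts were removed with filterByExpr, leaving 16401 for posterior eye, 15481 for retina and 17153 over both. Counts were scaled by TMM and fitted with 1 mean per group by edgeR 4.0.16 (R 4.3.3). Quasi-likelihood F tests were two-sided, Benjamini-Hochberg adjusted over all genes tested, with a threshold of 0.05. An SE is the log2 fold change over the square root of F, so approximate. The posterior eye table held 25 gene names turned into dates, left out of the fit over both tissues. The fit was tested on counts simulated without a link between an animal's 2 tissues. Planted log2 changes of 1 were recovered for 82.8% of changed genes in posterior eye and 95% in retina. For the difference between tissues 70% were recovered. Only changes of 1 and 2 were planted. The members' surgery differences were smaller, so recovery at their size was not tested.

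Members and gene lists were chosen with earlier results of these data known. Named beside the members were up to 4 called genes per list and direction and contrast by smallest p, of which some are printed, the 5 genes with the highest r with Gnaq at a mean of 10 CPM or more, and Rpe65 and Col1a1. A few genes that the rule names are not reported here. The labels tie both tissues to 1 animal, so the animal was used as a block in an alternative fit. Deviations of the same animal's libraries correlated between -0.04 and 0.28. Alternatives were DESeq2 1.42.0, RLE scaling, other filters, blocks, marker covariates and leaving out each animal.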

Additional observations from a re-analysis of the deposited data

Results flagged for a closer look

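In 5 of 80 sets of 6 libraries (10 genes, 4 groups, 2 tissues) the highest or lowest library stood far from the others, where chance alone gives about 4. In the retina, Gna14 was 2.87 CPM in aged OVX animal 23 (the others 1.03 to 1.61), Plcb1 11.8 in young sham animal 5 (14.4 to 15.5), Plcb3 10.9 in aged OVX animal 20 (13.6 to 15.1) and Itpr3 30.6 in aged sham animal 17 (16.0 to 21.4). In the posterior eye, Itpr1 was 47.2 CPM in aged OVX animal 19 (30.5 to 36.1).

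The surgery difference of Gnaq, averaged over ages, differed between tissues by 0.40 in log2 units, higher after OVX in posterior eye and lower in retina. The retinal difference was -0.18 ± 0.06 (SE) in young and -0.05 ± 0.06 in aged animals, whose groups overlapped. Gnaq was chosen on this contrast, so the value is a description.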

How the results depend on the processing

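The number of members past the threshold for surgery in the posterior eye was 0 in the report. It was 1 (Gnaq) by DESeq2, among 29 of 16401 genes. With a filter of at least 1 CPM in at least 6 libraries it was 1, among 2 of 15416 genes. Leaving out single animals it ran from 0 to 1, with 1 without young sham animal 5, young OVX animal 10 or aged sham animal 13. The count over all genes then ran from 0 to 5. For the tissue difference of the surgery effect 1 member passed, which was 1 of 17153 over all genes. Without single animals the number of members ran from 0 to 1 and that of all genes from 0 to 3. With the animal as replicate block the Gnaq tissue difference was 0.40 and no member's call changed. With the number within the group as replicate block Gnaq in the posterior eye lay at 0.27 for surgery and no member's call changed. The labels link no animals of the same number. Of 36 such pairs 22 correlated over 0.1 in posterior eye (median r 0.34) and 4 in retina (median r 0.02), so not every pair did. Of the libraries, 5 in posterior eye and 1 in retina correlated best with their own number. Library numbers ran group by group, so any order of processing that they reflect cannot be told apart from age and surgery. The Gnaq tissue level was 0.07 with no filter and 0.05 with the 1 CPM filter, past the threshold in neither. No called member changed sign. Small uncalled values did, such as Itpr1 for age in the posterior eye, from -0.05 to 0.08 with the fibroblast level as covariate. Counts over all genes depended more on the tool: DESeq2 called 67 genes for age and 29 for surgery in the posterior eye, where edgeR called 8 and 0, and 261 and 51 in retina, where edgeR called 114 and 8. For the tissue differences it called 20 for age and 10 for surgery, against 6 and 1, and for the dependence of surgery on age in the retina 22 against 7. For age in the posterior eye, 502 genes passed with the fibroblast covariate, and for age in the retina 14 with the lens covariate and 69 with no filter. Gna14 was measured from few reads, with retinal levels down to 0.569 CPM.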
